A study of Mus musculus with 4 samples.

Results

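The genes compared here encode innate pattern receptors and Fc receptors: the C-type lectins with a numbered Clec symbol other than Clec10a, the Toll-like receptors (Tlr), the NOD-like receptors of the Nlrp family, the receptors for IgG (Fcgr), the Cd209 lectins and the Cd300 receptors. They were chosen by symbol from the table of gene expression. Of 19030 genes in the table, 72 carried such a symbol, and 46 of these had a mean of at least 1 FPKM (a level scaled to the length of the transcript and the number of mapped fragments) over the 4 libraries and were tested, among 12658 tested genes in all. The other 26 were below that mean and are described separately.

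The 4 libraries were bulk poly-A RNA-seq of inguinal white adipose tissue (ingWAT), the subcutaneous fat depot of the groin, from C57BL/6 mice aged 3 months and kept at 4°C. Ctrl mice (2 libraries, genotype label Control) were Oct3 fl/fl littermates, in which loxP sites flank part of Oct3 (Slc22a3, a transporter that takes up norepinephrine). cKO mice (2 libraries, genotype label Oct3 deficient) carried the same floxed alleles together with Adiponectin-Cre, which is expressed in adipocytes, so the immune and vascular cells of the depot kept the gene. Neither the number of mice behind a library nor whether libraries came from separate mice is stated, so the p-values measure the spread between these libraries, which may be technical. The comparison asks which receptors differed in level in cold-exposed ingWAT when adipocytes lacked Oct3.

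Pattern receptors recognize conserved microbial molecules or products of damaged cells. Toll-like receptors signal through the adaptors Myd88 and Ticam1, several C-type lectins and the activating Fc and Cd300 receptors signal through ITAM motifs of the partner chains Fcer1g and Tyrobp to the kinase Syk, inhibitory receptors recruit the phosphatases Ptpn6 and Inpp5d through ITIM motifs, and Nlrp proteins assemble inflammasomes that mature interleukin-1β. In adipose tissue most of these receptors are carried by macrophages, monocytes, dendritic cells, neutrophils and B cells, and a few by endothelial cells or stromal cells.

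Slc22a3 itself was 16.95 and 17.68 FPKM in Ctrl and 9.07 and 9.50 FPKM in cKO (log2 fold change -0.83, SE 0.066, adjusted p = 0.000439). The depth of the 4 libraries, estimated from the steps between FPKM values, was 17600000 to 18700000 reads. Skeletal muscle markers set the groups apart: the summed FPKM of 7 genes was 2074 and 1379 in Ctrl and 8.21 and 6.36 in cKO, and all 7 fell. Of the markers of the labeled tissue, white adipocytes, 2 of 6 fell and none rose (median log2 fold change -0.16, summed FPKM 19550 and 19920 in Ctrl and 16510 and 16670 in cKO). Of the keratinocyte markers 1 was tested and did not pass (summed FPKM of the list 2.43 and 2.22 in Ctrl and 1.72 and 1.81 in cKO), none of 4 epithelial markers reached the minimum (summed FPKM 0.60 to 0.90), and of the lymphatic endothelial markers 1 of 3 fell (median log2 fold change 0.12). The pan-leukocyte markers all rose (4 of 4, median log2 fold change 0.46), with summed FPKM of 309.1 and 314.8 in Ctrl and 419.2 and 476.9 in cKO. In bulk tissue a change in the number of cells of a type and a change in RNA per cell cannot be told apart.

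Receptors moved in both directions in cKO ingWAT. Genes were called differentially expressed at an adjusted p under 0.05 (limma on log2(FPKM + 1) with Benjamini-Hochberg adjustment over all genes tested), and fold changes on this scale understate the change of genes of low level. Of the 46 receptor genes, 8 were higher and 10 lower in cKO and 28 did not pass the test, so 39.1% were differentially expressed where 25.8% of all tested genes were. By direction, 17.4% were higher against 12.0% of all genes, and 21.7% were lower against 13.8% of all genes. Clec4d, Cd300lf and Tlr13, which count among those higher, reached the minimum mean of 1 FPKM only through their cKO values. The median log2 fold change of the 46 was -0.07 and that of all genes -0.006. An absolute log2 fold change of at least 1 was reached by Clec4d and Fcgr1, both higher in cKO, where 1.84% of all genes passed the test with such a change. The 8 that rose were Clec4d, Fcgr1, Fcgr4, Tlr13, Cd300lf, Cd300a, Cd300lb and Tlr9, and the 10 that fell were Cd209f, Clec3b, Cd209a, Cd209d, Cd209g, Tlr4, Clec1a, Fcgr3, Fcgr2b and Cd300lg. In all 18 the Ctrl and cKO libraries did not overlap. With 2 libraries a group this largely follows from the calls, here and where single genes are described, and adds no support to them. Among the other 28, both cKO libraries were above both Ctrl libraries for 5 and below them for 9. Over all 46 they were above for 13 and below for 19. Over all genes, called or not, 31.9% had both cKO libraries above and 34.6% had both below. With 2 libraries against 2, an exact permutation test of a single gene cannot give a two-sided p below 0.333, so the calls rest on the spread that limma shares across genes.

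**Figure D1:**
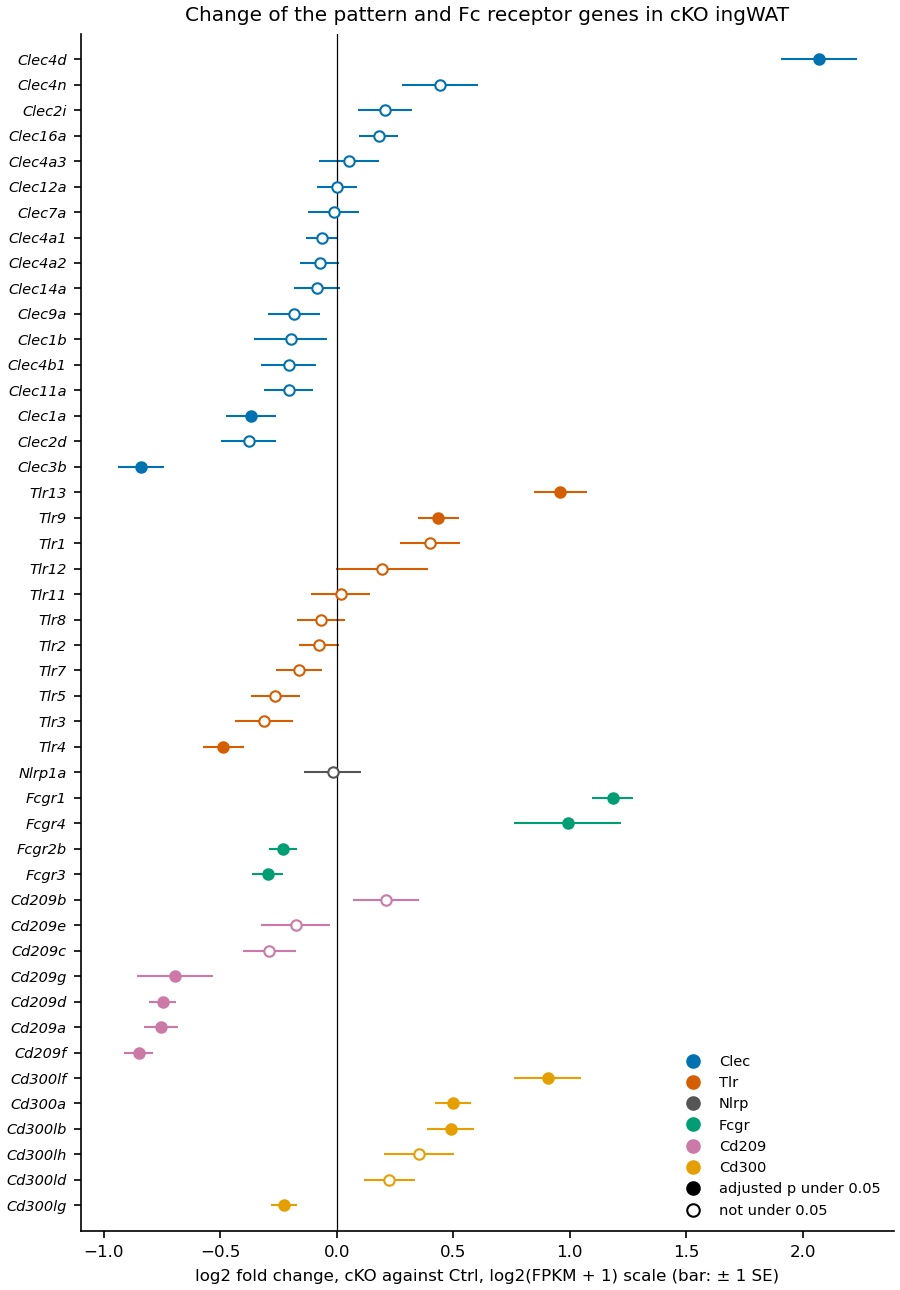
Log2 fold change of each of the 46 tested receptor genes (cKO minus Ctrl, log2(FPKM + 1)), grouped by family; bars are ± 1 SE and filled points have an adjusted p under 0.05. Clec4d (2.07) and Fcgr1 (1.18) lie furthest to the right, and the Cd209 genes other than Cd209b lie to the left of 0.

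The Fcγ receptors moved in both directions. All 4 Fcgr genes passed the test, with 2 higher and 2 lower in cKO, where 25.8% of all genes passed it. Fcgr1, the high-affinity receptor for monomeric IgG, and Fcgr4, an activating receptor of myeloid cells, rose, whereas Fcgr3, the low-affinity activating receptor, and Fcgr2b, the inhibitory receptor with an ITIM, fell. Fcgr1 was 3.83 and 4.02 FPKM in Ctrl and 10.88 and 9.54 FPKM in cKO. Its mean rose 2.60-fold, with both cKO libraries far above both Ctrl libraries (log2 fold change 1.18, SE 0.087, adjusted p = 0.000354). Fcgr4 was 3.07 and 1.36 FPKM in Ctrl and 4.87 and 5.47 FPKM in cKO. The Ctrl libraries differed more from each other than the cKO libraries did, and both stayed below them (log2 fold change 0.99, SE 0.23, adjusted p = 0.0196). Its log2 fold change was 0.60 without Ctrl replicate 2 (adjusted p = 0.0474) and 1.39 without Ctrl replicate 1 (adjusted p = 0.0142).

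Fcgr3 and Fcgr2b were the most abundant of the 4 per transcript length. Fcgr3 was 36.45 and 35.64 FPKM in Ctrl and 30.78 and 27.59 FPKM in cKO (log2 fold change -0.30, SE 0.069, adjusted p = 0.0193). Fcgr2b was 33.44 and 31.12 FPKM in Ctrl and 27.48 and 27.17 FPKM in cKO (log2 fold change -0.23, SE 0.061, adjusted p = 0.0318). Both decreases were small, and in each the groups did not overlap. The ratio of Fcgr1 and Fcgr4 together to Fcgr2b was 0.206 and 0.173 in Ctrl and 0.573 and 0.552 in cKO, a mean of 0.190 ± 0.024 against 0.563 ± 0.015 (SD, n = 2), which is 2.97-fold higher. That ratio sets 2 genes that rose over a gene that fell, so its separation follows from their calls and adds no support to them. The ratio of Fcgr3 to Fcgr2b was 1.09 and 1.15 in Ctrl and 1.12 and 1.02 in cKO, so these values overlapped. The sum of the 4 genes was 76.79 and 72.14 FPKM in Ctrl and 74.01 and 69.77 FPKM in cKO, and the ranges of the groups overlapped although every gene in the sum had changed.

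**Figure D2:**
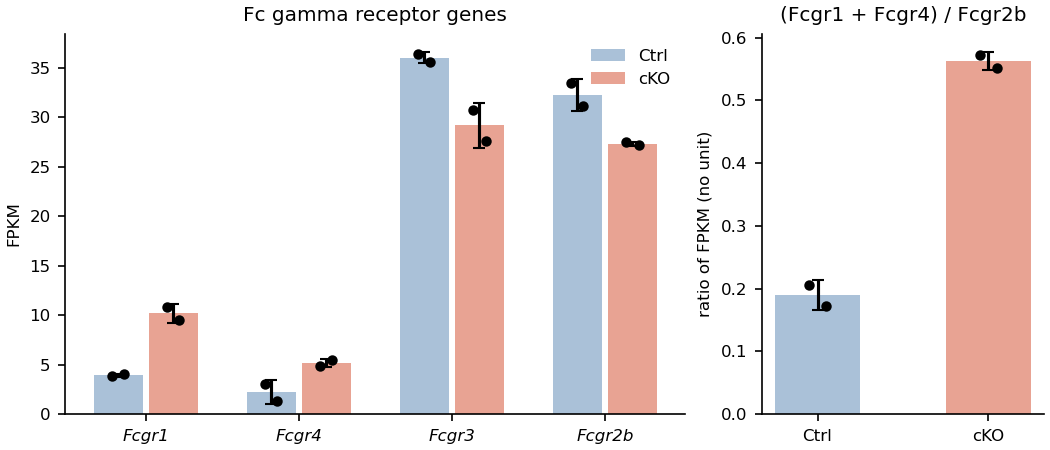
Left, FPKM of the 4 Fcγ receptor genes; right, the ratio of Fcgr1 and Fcgr4 together to Fcgr2b; bars are means, error bars SD and points the 2 libraries of each group. Fcgr1 and Fcgr4 were higher and Fcgr3 and Fcgr2b lower in cKO, and the ratio rose from a mean of 0.190 to 0.563. Its separation follows from the calls of these genes.

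The calls of this family differed in how well they held under other settings. Fcgr1 kept its call under every alternative run, which here and for the genes that follow means each alternative in which the gene was tested, the added limit on fold change left aside. Fcgr4 lost it with no filter on low values (adjusted p = 0.128), without cKO replicate 1 (0.0828) and without cKO replicate 2 (0.11). Fcgr3 lost it with no filter (0.0732), without Ctrl replicate 1 (0.148), without Ctrl replicate 2 (0.0989) and without cKO replicate 2 (0.0802). Fcgr2b lost it with no filter (0.0708), with median-of-ratios scaling (0.0516), with no variance trend (0.0671) and without any one of Ctrl replicate 1 (0.197), Ctrl replicate 2 (0.0704), cKO replicate 1 (0.0956) and cKO replicate 2 (0.106). Fcgr3 and Fcgr2b are paralogs: 12.8% of the possible 50-base reads of Fcgr3 and 7.44% of those of Fcgr2b also occur in transcripts of other genes, mostly in those of each other, so part of their reads could have been assigned to either.

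Fcgr2b, Fcgr4 and Fcgr3 lie next to one another on chromosome 1 (GRCm38: Fcgr2b 170960558 to 170976071, Fcgr4 171018926 to 171029761, Fcgr3 171051169 to 171065915), whereas Fcgr1 is on chromosome 3 (96282909 to 96293969). The promoters of both Fcgr genes that rose and of Fcgr2b, which fell, are printed for comparison as RefSeq windows of 250 bases before and 50 bases after the annotated start (GRCm38.p6), read 5′ to 3′ on the strand of the gene. Capitals mark matches on either strand to any of 4 letter patterns: TTCNNNGAA (named GAS here, the form bound by STAT factors), GAAA repeated after a gap of 2 bases (ISRE-type, the form bound by interferon regulatory factors), GAGGAA (purine box, a core found in sites of the myeloid factor PU.1) and TGANTCA (AP-1).
Fcgr1 (chr3:96293920-96294219, minus strand): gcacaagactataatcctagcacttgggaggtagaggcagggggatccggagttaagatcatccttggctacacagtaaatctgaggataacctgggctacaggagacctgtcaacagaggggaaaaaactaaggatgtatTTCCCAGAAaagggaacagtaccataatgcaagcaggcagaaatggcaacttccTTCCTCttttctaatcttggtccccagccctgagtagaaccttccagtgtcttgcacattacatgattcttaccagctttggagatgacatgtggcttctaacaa
Fcgr4 (chr1:171018676-171018975, plus strand): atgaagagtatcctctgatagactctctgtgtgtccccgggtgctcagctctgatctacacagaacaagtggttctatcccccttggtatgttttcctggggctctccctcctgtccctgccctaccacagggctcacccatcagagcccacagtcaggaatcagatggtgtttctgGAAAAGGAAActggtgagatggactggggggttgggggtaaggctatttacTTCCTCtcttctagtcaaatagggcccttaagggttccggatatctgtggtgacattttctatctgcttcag
Fcgr2b (chr1:170976022-170976321, minus strand): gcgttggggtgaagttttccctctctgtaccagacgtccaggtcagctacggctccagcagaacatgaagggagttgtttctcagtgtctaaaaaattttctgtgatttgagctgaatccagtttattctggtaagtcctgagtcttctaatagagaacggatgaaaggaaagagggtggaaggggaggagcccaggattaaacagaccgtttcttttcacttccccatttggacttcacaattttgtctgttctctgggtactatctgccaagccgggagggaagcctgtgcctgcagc
The window of Fcgr1 held a GAS match and a purine box, that of Fcgr4 an ISRE-type match and a purine box, and that of Fcgr2b none of the 4 patterns. Over 32851 windows of all genes, 8.30% held the GAS pattern, 3.44% the ISRE-type pattern, 28.3% a purine box and 7.81% an AP-1 match. A match describes letters in this window and is not evidence of binding.

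Among the C-type lectins the largest change was that of Clec4d. Clec4d, a myeloid receptor for the mycobacterial glycolipid cord factor that couples to Fcer1g, was 0.29 and 0.72 FPKM in Ctrl and 5.83 and 4.72 FPKM in cKO. The cKO libraries were many times above the Ctrl libraries, with a ratio of means of 10.4 that rests on an estimated 7 and 17 reads in Ctrl and 132 and 108 in cKO (log2 fold change 2.07, SE 0.16, adjusted p = 0.000439). Its neighbors on chromosome 6 encode related receptors. Clec4e (Mincle), the inducible partner of Clec4d for the same glycolipid, was 0.26 and 0.47 FPKM in Ctrl and 1.02 and 0.94 FPKM in cKO, below the minimum for testing, and with no filter it had an adjusted p of 0.0523 (log2 fold change 0.54). Clec4n (Dectin-2), a receptor for fungal mannans, was 8.37 and 6.61 FPKM in Ctrl and 8.76 and 12.51 FPKM in cKO (log2 fold change 0.44, SE 0.16, adjusted p = 0.0887). For both the cKO values lay above the Ctrl values, and the value of Clec4n depended on single libraries. It passed the test with a minimum of 5 FPKM (adjusted p = 0.0415) and without cKO replicate 1 (log2 fold change 0.68, adjusted p = 0.0344), and it was 0.21 without cKO replicate 2 (adjusted p = 0.350) and 0.29 without Ctrl replicate 2 (adjusted p = 0.416). The ratio of Clec4d to Clec4n was 0.0347 and 0.109 in Ctrl and 0.666 and 0.377 in cKO. Its separation follows from the rise of Clec4d and adds no support to that call. Clec4d kept its call under every alternative run.

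The promoter of Clec4d is shown because this gene rose most among the receptors, with the same 4 patterns in capitals.
Clec4d (chr6:123261857-123262156, plus strand): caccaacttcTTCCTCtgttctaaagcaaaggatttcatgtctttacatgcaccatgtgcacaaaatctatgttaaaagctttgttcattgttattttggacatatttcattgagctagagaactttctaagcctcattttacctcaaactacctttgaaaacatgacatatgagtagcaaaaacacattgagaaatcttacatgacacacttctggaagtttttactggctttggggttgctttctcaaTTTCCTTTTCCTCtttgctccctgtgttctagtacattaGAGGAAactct
This window held 3 purine boxes and an ISRE-type match, and the ISRE-type match overlapped a purine box. Of the windows of the 8 receptor genes that rose, 7 of 8 held a purine box. Of the 7 windows of the receptor genes that fell, which came from only 6 genes, 3 held one. Over all tested receptor genes it was 25 of the 45 windows, and over all genes 28.3%. These shares were not tested. Of the 46 tested genes, 40 had a window in the RefSeq table.

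Clec3b and Clec1a were the C-type lectin genes that fell. Clec3b encodes tetranectin, a secreted plasminogen-binding protein of connective tissue rather than a microbial receptor, and it had the highest FPKM of the 46 genes. It was 226.5 and 184.9 FPKM in Ctrl and 117.7 and 110.1 FPKM in cKO, with both cKO libraries well below both Ctrl libraries (log2 fold change -0.84, SE 0.098, adjusted p = 0.00150). Fibroblast markers moved with it: 4 of 5 fell and none rose, and the median log2 fold change was -0.92, at a summed FPKM of 1388 and 1202 in Ctrl and 654.2 and 704.3 in cKO. Their part in the change of Clec3b was not tested. Clec1a, a lectin of endothelial and myeloid cells, was 3.61 and 3.09 FPKM in Ctrl and 2.24 and 2.49 FPKM in cKO (log2 fold change -0.37, SE 0.11, adjusted p = 0.0420). Its call was weak: it was lost with no filter (adjusted p = 0.115), with quantile normalization (0.0642) and without any one of Ctrl replicate 1 (0.250), Ctrl replicate 2 (0.0891), cKO replicate 1 (0.142) and cKO replicate 2 (0.0717). Its annotated span overlaps that of Clec12b by 951 bases, and Clec12b was 0.38 to 0.55 FPKM in every library.

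Clec7a and Clec12a, well studied receptors of myeloid cells, did not pass the test. Clec7a (Dectin-1), the receptor for β-glucan, was 5.93 and 4.78 FPKM in Ctrl and 4.98 and 5.58 FPKM in cKO (log2 fold change -0.01, SE 0.11). Clec12a, an inhibitory receptor for urate crystals, was 5.22 and 4.72 FPKM in Ctrl and 5.09 and 4.86 FPKM in cKO (log2 fold change 0.002, SE 0.085). In both genes the cKO values lay within the range of the Ctrl values. Clec14a, an endothelial lectin, was 3.72 and 3.82 FPKM in Ctrl and 3.22 and 3.79 FPKM in cKO (log2 fold change -0.09, SE 0.098), and these groups overlapped. Clec2d, a ligand of an inhibitory receptor of NK cells, was 55.41 and 53.42 FPKM in Ctrl and 36.24 and 47.85 FPKM in cKO and just missed the threshold (log2 fold change -0.38, SE 0.12, adjusted p = 0.0550). The remaining 9 of the 17 tested Clec genes, which were Clec11a, Clec16a, Clec1b, Clec2i, Clec4a1, Clec4a2, Clec4a3, Clec4b1 and Clec9a, had log2 fold changes from -0.21 to 0.21 and adjusted p values from 0.164 to 0.792. In the family as a whole 1 gene rose, 2 fell and 14 did not pass the test, and the median log2 fold change was -0.07. The share called was 17.65%, below the 25.8% of all genes.

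The Cd209 lectins, relatives of human DC-SIGN that bind mannose- and fucose-containing glycans, were the family with the most genes lower in cKO. All 7 genes were tested, and 4 fell, none rose and 3 did not pass the test. The share lower was 57.1%, against 13.8% of all genes, and the median log2 fold change was -0.70. Cd209f was 72.77 and 68.03 FPKM in Ctrl and 39.56 and 37.59 FPKM in cKO (log2 fold change -0.85, SE 0.062, adjusted p = 0.000351). Cd209d was 29.33 and 28.50 FPKM in Ctrl and 16.86 and 16.76 FPKM in cKO (log2 fold change -0.75, SE 0.058, adjusted p = 0.000404). Cd209a, expressed by dendritic cells that derive from monocytes, was 12.24 and 12.26 FPKM in Ctrl and 6.54 and 7.18 FPKM in cKO (log2 fold change -0.75, SE 0.073, adjusted p = 0.000845). In these genes the mean in cKO was 0.548, 0.581 and 0.560 of that in Ctrl, with little spread within either group, and the 3 calls held under every alternative run.

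Cd209g was 25.23 and 18.39 FPKM in Ctrl and 14.80 and 11.27 FPKM in cKO, a wider spread with no overlap (log2 fold change -0.70, SE 0.16, adjusted p = 0.0202). Its call was lost with no filter (adjusted p = 0.128), without Ctrl replicate 1 (0.163) and without cKO replicate 2 (0.115). Cd209f and Cd209g share 38.2% and 38.7% of their possible reads, mostly with each other, so how their reads were divided between them is uncertain. Cd209b, the member of lymph node and splenic macrophages that takes up blood-borne polysaccharides, was 50.58 and 53.69 FPKM in Ctrl and 50.86 and 71.90 FPKM in cKO and did not pass the test (log2 fold change 0.21, SE 0.14, adjusted p = 0.321). Cd209f was therefore the highest of the family in both Ctrl libraries, and Cd209b in both cKO libraries. The ratio of Cd209b to Cd209f was 0.695 and 0.789 in Ctrl and 1.29 and 1.91 in cKO. Its separation follows largely from the fall of Cd209f and adds no support to that call. Cd209c (adjusted p = 0.105) and Cd209e (adjusted p = 0.421) had log2 fold changes of -0.29 and -0.18. The summed level of the 7 genes was 197.0 and 189.7 FPKM in Ctrl and 134.4 and 151.4 FPKM in cKO.

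All 7 Cd209 genes lie on chromosome 8 between 3743395 and 4137707 (GRCm38). The promoter of Cd209f is shown as that of the receptor gene with the largest decrease.
Cd209f (chr8:4105715-4106014, minus strand): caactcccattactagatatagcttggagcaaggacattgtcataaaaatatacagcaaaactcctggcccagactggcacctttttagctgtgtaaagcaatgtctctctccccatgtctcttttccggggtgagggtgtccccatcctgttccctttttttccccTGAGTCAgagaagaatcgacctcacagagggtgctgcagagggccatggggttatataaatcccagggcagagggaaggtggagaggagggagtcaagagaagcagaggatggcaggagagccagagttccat
It held an AP-1 match and none of the other 3 patterns.

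Macrophage markers moved in both directions. Of 12 macrophage markers 5 fell, 2 rose and 5 did not pass the test, and the median log2 fold change was -0.21. Cd163, the scavenger receptor for hemoglobin, fell from 18.95 and 17.18 FPKM to 8.39 and 7.35 FPKM (log2 fold change -1.10), and the mannose receptor Mrc1 fell from 33.35 and 29.22 FPKM to 19.25 and 17.84 FPKM (log2 fold change -0.72, adjusted p = 0.00131). Cd68, a lysosomal protein of phagocytes, rose from 42.99 and 36.32 FPKM to 71.87 and 61.39 FPKM (log2 fold change 0.73). The summed FPKM of the 12 markers was 1377 and 1194 in Ctrl and 1224 and 1238 in cKO, without separation of the groups. The part of macrophage numbers or states in the changes of the Cd209 and Fcgr genes was not tested.

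**Figure D3:**
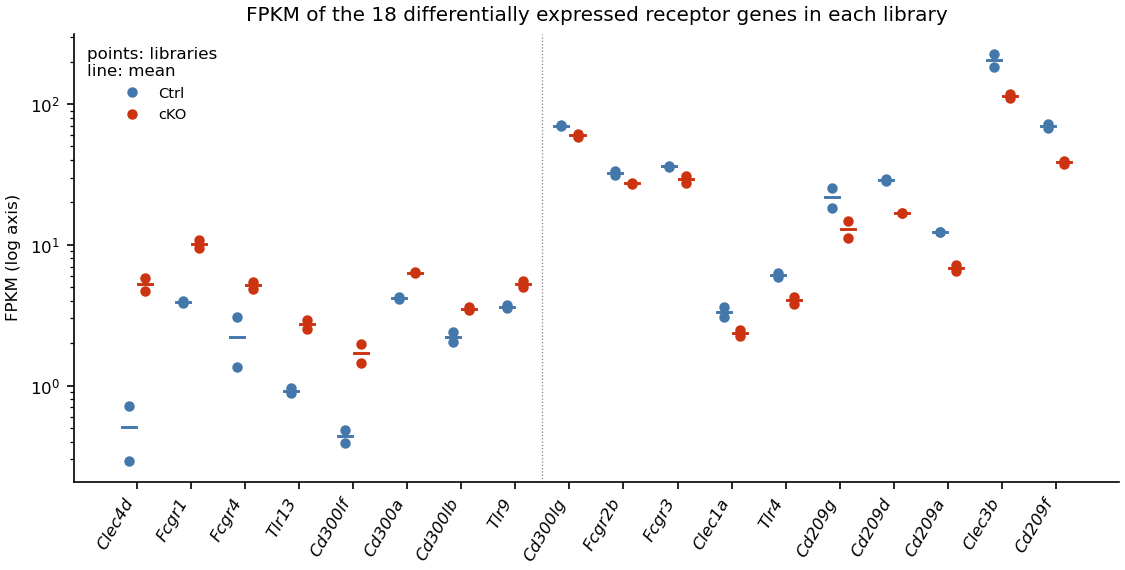
FPKM of the 18 differentially expressed receptor genes in each library on a log axis; points are libraries, short lines are group means, and the dotted line divides genes higher in cKO (left) from genes lower in cKO (right). The genes that rose had Ctrl means of 0.435 to 4.20 FPKM, and the genes that fell 3.35 to 205.7 FPKM; Clec4d, Cd300lf and Tlr13 reached the minimum mean of 1 FPKM through their cKO values, so the filter shapes this contrast in part.

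Of the 11 Toll-like receptors tested, 2 rose, 1 fell and 8 did not pass the test. The share called was thus 27.3%, near the 25.8% of all genes, and the median log2 fold change was -0.07. The genes that rose encode receptors for nucleic acid in endosomes. Tlr13, the receptor for bacterial ribosomal RNA, was 0.88 and 0.96 FPKM in Ctrl and 2.94 and 2.54 FPKM in cKO, a 2.98-fold rise of the mean (log2 fold change 0.96, SE 0.11, adjusted p = 0.00160). Tlr9, the receptor for unmethylated CpG DNA, was 3.73 and 3.53 FPKM in Ctrl and 5.01 and 5.52 FPKM in cKO (log2 fold change 0.44, SE 0.088, adjusted p = 0.0115). Both cKO libraries were above both Ctrl libraries in each case. Tlr4, the receptor for lipopolysaccharide, fell from 6.28 and 5.87 FPKM in Ctrl to 3.82 and 4.28 FPKM in cKO (log2 fold change -0.49, SE 0.088, adjusted p = 0.00774). The ratio of Tlr9 to Tlr4 was 0.594 and 0.601 in Ctrl and 1.31 and 1.29 in cKO, a 2.18-fold difference in the mean. This sets a gene that rose over a gene that fell, so the separation follows from the 2 calls and adds no support to them.

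Tlr13 kept its call under every alternative run. Tlr9 lost it with no filter (adjusted p = 0.0574), without Ctrl replicate 1 (0.0932), without Ctrl replicate 2 (0.0989) and without cKO replicate 2 (0.0547), and Tlr4 lost it with no filter (0.0511), without Ctrl replicate 1 (0.107) and without Ctrl replicate 2 (0.0587).

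None of the other Toll-like receptors for nucleic acid passed the test. Tlr7, a receptor for guanosine-rich RNA, was 4.23 and 3.61 FPKM in Ctrl and 3.47 and 3.31 FPKM in cKO (log2 fold change -0.16, adjusted p = 0.274). Tlr8, its close relative, was 2.77 and 2.56 FPKM in Ctrl and 2.68 and 2.32 FPKM in cKO (log2 fold change -0.07, adjusted p = 0.674). Tlr3, the receptor for RNA duplexes, was 4.51 and 4.34 FPKM in Ctrl and 2.87 and 3.92 FPKM in cKO (log2 fold change -0.31, adjusted p = 0.110), and its value was -0.49 without cKO replicate 2 (adjusted p = 0.0289) and -0.14 without cKO replicate 1 (adjusted p = 0.356). The cKO values of Tlr7 and Tlr3 lay below the Ctrl values, and those of Tlr8 overlapped with them. Among the receptors of the cell surface, Tlr2, the receptor for lipopeptides, was 4.17 and 3.94 FPKM in Ctrl and 3.90 and 3.68 FPKM in cKO (log2 fold change -0.08, adjusted p = 0.552). Tlr5, the receptor for flagellin, was 4.15 and 3.89 FPKM in Ctrl and 2.88 and 3.50 FPKM in cKO (log2 fold change -0.26, adjusted p = 0.108). Tlr1, a partner of Tlr2, had a log2 fold change of 0.40 with an adjusted p of 0.0585, and 15.3% of its possible reads also occur in other transcripts, mostly that of Tlr6. Tlr11 and Tlr12, the receptors for the profilin of parasites, had adjusted p values of 0.938 and 0.509. The summed FPKM of the Tlr genes was 40.62 and 39.85 in Ctrl and 38.88 and 44.96 in cKO.

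B cells express Tlr9 as well as myeloid cells do, and B cell markers moved with it: all 7 rose, and the median log2 fold change was 0.53, at a summed FPKM of 214.9 and 242.7 in Ctrl and 340.7 and 385.1 in cKO. Of the dendritic cell markers, 2 of 7 rose and none fell (median log2 fold change 0.11, summed FPKM 38.85 and 38.86 in Ctrl and 47.64 and 58.47 in cKO). T cell markers rose in 6 of 7 cases (median log2 fold change 0.61, summed FPKM 100.5 and 103.8 in Ctrl and 139.2 and 181.7 in cKO), and of the NK cell markers 1 of 4 rose (median log2 fold change 0.13). The part of these cells in the changes of the Tlr genes was not tested.

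The Nlrp genes were near the lower end of the scale. Only Nlrp1a of the 11 genes in the table was tested, at 1.42 and 1.29 FPKM in Ctrl and 1.19 and 1.47 FPKM in cKO, and it did not pass the test (log2 fold change -0.02, SE 0.12, adjusted p = 0.932). Nlrp3, the sensor of the best studied inflammasome, was 0.41 and 0.30 FPKM in Ctrl and 0.46 and 0.50 FPKM in cKO, an estimated 22 to 35 reads a library (adjusted p = 0.261 with no filter). Nlrp1b, the sensor of anthrax lethal toxin, was 0.37 and 0.46 FPKM in Ctrl and 0.34 and 0.43 FPKM in cKO, and Nlrp12 was listed at 0.01 and 0 in Ctrl and at 0.08 and 0.04 in cKO. None of the Nlrp genes passed the test with no filter.

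Of the Cd300 family, paired receptors for lipids of dying cells, 3 of the 6 tested genes rose, 1 fell and 2 did not pass the test. The share called was 66.7%, against 25.8% of all genes, and the median log2 fold change was 0.42. Cd300lf, an inhibitory receptor of myeloid cells, was 0.48 and 0.39 FPKM in Ctrl and 1.96 and 1.44 FPKM in cKO, a 3.91-fold rise of the mean (log2 fold change 0.91, SE 0.14, adjusted p = 0.00466). Cd300a, an inhibitory receptor for phosphatidylserine, was 4.27 and 4.12 FPKM in Ctrl and 6.38 and 6.32 FPKM in cKO (log2 fold change 0.50, SE 0.078, adjusted p = 0.00430). Cd300lb, an activating receptor that couples to Tyrobp, was 2.41 and 2.04 FPKM in Ctrl and 3.59 and 3.45 FPKM in cKO (log2 fold change 0.49, SE 0.10, adjusted p = 0.0131). In all 3 the cKO libraries were above the Ctrl libraries. Cd300ld (adjusted p = 0.177) and Cd300lh (adjusted p = 0.135) had log2 fold changes of 0.23 and 0.35, also with both cKO libraries above both Ctrl libraries, and 82.1% of the possible reads of Cd300lh occur in other transcripts, mostly that of Cd300ld5.

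Cd300lg (nepmucin), a member of the family on capillary and lymph node endothelium, was the most abundant and the only one that fell, from 70.55 and 69.87 FPKM in Ctrl to 58.59 and 61.16 FPKM in cKO (log2 fold change -0.23, SE 0.055, adjusted p = 0.0236). Vascular endothelial markers moved with it: 4 of 7 fell and none rose, and the median log2 fold change was -0.24, at a summed FPKM of 264.8 and 259.0 in Ctrl and 224.3 and 234.8 in cKO. The part of endothelial cells in its change was not tested. Cd300lf kept its call under every alternative run, and its annotated span lies within that of Rab37. Cd300a lost its call without Ctrl replicate 1 (adjusted p = 0.0610) and without Ctrl replicate 2 (0.0542). Cd300lb lost it with no filter (0.0608), without Ctrl replicate 1 (0.0645), without Ctrl replicate 2 (0.0979) and without cKO replicate 1 (0.0612), and Cd300lg lost it with no variance trend (0.0609), without Ctrl replicate 1 (0.143), without Ctrl replicate 2 (0.105) and without cKO replicate 1 (0.0964).

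Markers of monocytes and neutrophils, which are known to carry Clec4d, Fcgr4 and Cd300lf, rose in part. Of the monocyte markers 2 of 5 rose and none fell (median log2 fold change 0.24, summed FPKM 91.25 and 80.82 in Ctrl and 114.1 and 114.0 in cKO). Of 10 neutrophil markers 6 were tested, of which 5 rose and 1 fell (median log2 fold change 0.78), and the sum over all 10 was 29.38 and 26.51 FPKM in Ctrl and 40.39 and 38.90 FPKM in cKO. The monocyte markers Ccr2 and Ear2 overlapped between the groups, and the neutrophil marker that fell was Mmp9. Retnlg, a neutrophil marker that rose, had a Ctrl mean of 0.90 FPKM and reached the minimum only through its cKO values. Of the neutrophil markers below the minimum, Ly6g and Camp overlapped between the groups. For Mmp8 and Ngp both cKO libraries were above both Ctrl libraries. The part of monocytes and neutrophils in the rise of the receptors was not tested. Of the mast cell markers 2 of 5 fell (median log2 fold change -0.30).

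**Figure D4:**
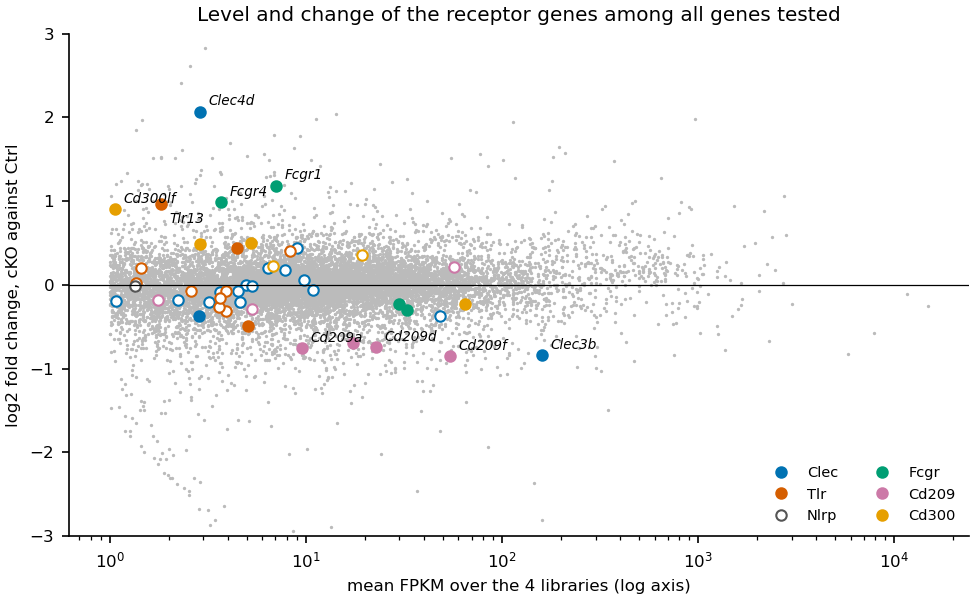
Log2 fold change (cKO minus Ctrl, log2(FPKM + 1)), plotted against the mean FPKM of the 4 libraries (log axis); grey points are all genes tested, colored points the receptor genes by family, filled where the adjusted p was under 0.05, and 19 genes beyond ± 3 are not drawn. The labeled genes that rose lie at mean levels under 10 FPKM, and the labeled genes that fell reach up to Clec3b at 159.8 FPKM.

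Downstream of these receptors, most of the ITAM and ITIM signaling genes rose. Of 20 genes tested 12 were higher, none was lower and 8 did not pass the test. Of all genes 12.0% were higher and 25.8% were called in either direction. For the 20 genes the median log2 fold change was 0.43. The Src family kinase Fgr rose from 2.75 and 3.19 FPKM to 5.14 and 5.36 FPKM (log2 fold change 0.66, adjusted p = 0.00313). Fgr lost its call without Ctrl replicate 1 (adjusted p = 0.0564). Genes that rose also included Syk, Plcg2, Lyn, Vav1, Lcp2, Btk, Prkcd, Inpp5d, Ptpn6 and Lat2, which encode kinases, adaptors, a phospholipase and the phosphatases that inhibitory receptors recruit. The partner chains themselves, Fcer1g (adjusted p = 0.160) and Tyrobp (adjusted p = 0.0812), did not pass the test. Several of these genes are also expressed throughout leukocytes, and the pan-leukocyte markers had a median of 0.46. The part of leukocyte numbers in the rise of the signaling genes was not tested.

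The genes of Toll-like receptor signaling did not move in 1 direction: of 27 tested, 4 were higher and 3 lower. These are 25.9% of the list, which is the background of 25.8% of all genes, and the median log2 fold change was 0.08. The interferon regulatory factors Irf7, from 21.75 and 19.11 FPKM to 40.43 and 33.99 FPKM (log2 fold change 0.83, adjusted p = 0.00154), and Irf5, from 13.94 and 13.86 FPKM to 21.67 and 20.77 FPKM (log2 fold change 0.58, adjusted p = 0.00115), rose most. The largest decreases were those of Lbp, which extracts lipopolysaccharide from bacterial membranes, from 16.64 and 14.90 FPKM to 8.81 and 8.71 FPKM (log2 fold change -0.78, adjusted p = 0.000819), and Cd14, a coreceptor of Tlr4, from 16.75 and 15.19 FPKM to 9.84 and 10.04 FPKM (log2 fold change -0.63, adjusted p = 0.00140). Ly96, the chain of the Tlr4 complex that binds lipopolysaccharide, did not pass the test, at 7.13 and 8.76 FPKM in Ctrl and 7.59 and 7.38 FPKM in cKO. The share of inflammasome genes called was 14.3%, below the 25.8% of all genes. Of the 14 tested 2 rose and none fell, and the median log2 fold change was -0.02. Il1b, the cytokine that inflammasomes mature, rose from 0.66 and 0.88 FPKM to 2.71 and 2.38 FPKM (log2 fold change 1.003, adjusted p = 0.00184). It reached the minimum mean of 1 FPKM only through its cKO values. The adaptor Pycard rose from 5.89 and 5.62 FPKM to 7.79 and 8.22 FPKM (log2 fold change 0.41, adjusted p = 0.00785). Pycard lost its call without Ctrl replicate 1 (adjusted p = 0.0774) and without Ctrl replicate 2 (0.0802).

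Other innate and Fc receptors outside the 6 families as defined above, with Clec10a counted among them, moved in both directions as well. Of 33 tested, 11 were higher and 8 lower, and the median log2 fold change was 0.10. The share called was 57.6%, against 25.8% of all genes. Lilrb4a, an inhibitory receptor of myeloid cells, rose from 8.38 and 7.42 FPKM to 19.44 and 16.88 FPKM (log2 fold change 1.10, adjusted p = 0.000485), and the Fc receptor-like gene Fcrl1, a B cell receptor, rose from 7.36 and 7.99 FPKM to 12.91 and 15.63 FPKM (log2 fold change 0.81, adjusted p = 0.00172). Fcrls, a secreted Fc receptor-like protein of macrophages, fell from 20.20 and 18.05 FPKM to 9.95 and 8.22 FPKM (0.475 of the Ctrl mean, adjusted p = 0.000895), and the next largest decrease was that of Mrc1. Counting Cd14 and Cd36, which stand in 2 of these lists, once, 29 of 92 tested genes were higher and 9 lower, and 41.3% were differentially expressed where 25.8% of all genes were.

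**Figure D5:**
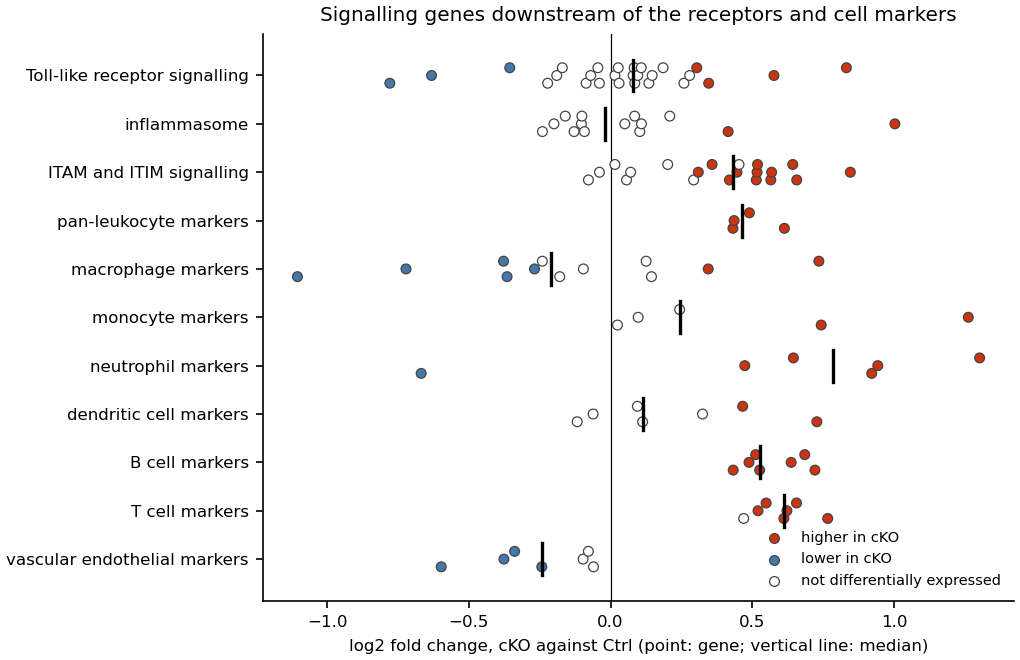
Log2 fold change of each tested gene of 3 signaling lists and 8 marker lists (cKO minus Ctrl, log2(FPKM + 1)); points are genes, colored where the adjusted p was under 0.05, and vertical lines are medians. The medians of ITAM and ITIM signaling (0.43) and of the pan-leukocyte markers (0.46) lie to the right of 0, and that of the macrophage markers (-0.21) to the left.

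Of the 26 receptor genes below the minimum, 21 had a mean under 0.5 FPKM, and none passed the test when all 19030 genes were tested with no filter. The genes just below the minimum were Clec4g (mean 0.968 FPKM), Cd300c (0.940) and Tlr6 (0.935), and the genes just above it were Cd300lf (1.07) and Clec1b (1.07). Cd300c was 0.74 and 0.84 FPKM in Ctrl and 1.05 and 1.13 FPKM in cKO, and Tlr6 was 0.92 and 0.91 FPKM in Ctrl and 0.73 and 1.18 FPKM in cKO. The others with a mean over 0.5 FPKM were Clec4e, described above, and Clec5a, a myeloid receptor that couples to Tyrobp, at 0.61 and 0.69 FPKM in Ctrl and 0.67 and 0.81 FPKM in cKO.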

How the data were processed

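Poly-A RNA of ingWAT was read by the authors as 50 bp single-end sequences on the BGISEQ-500 platform, and they deposited 1 table of FPKM per gene and library, 2 libraries for each genotype. The submitters' processing notes name HISAT2 2.0.4, RSEM 1.2.12 and mm10, with no role given. Libraries were assigned by their titles.

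The test was that of limma 3.58.1 (R 4.3.3) on log2(FPKM + 1), over genes with a mean of at least 1 FPKM (eBayes with a variance trend, two-sided, Benjamini-Hochberg adjustment over 12658 genes, threshold 0.05). In simulated data 200 of 200 changed genes and 15 unchanged genes were called. Detection of changes of the size and level seen in the receptors called here was not tested. Depth was not given and was estimated from the FPKM steps of 319 genes with transcripts up to 400 bases long, of which 83.8% to 89.6% came out whole within 0.1 of a read, so estimated reads are approximate and cover counting error only. For longer transcripts the steps did not give whole reads, and no count test was run.

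The receptor genes, the 4 pathway lists and the 16 marker lists were chosen with earlier results of these data known. Values in every library are given for all receptors called and for a fixed set of well-known receptors, and for the 2 largest rises and 2 largest falls called in each pathway list, except 1 gene that is not reported here. Other named genes were chosen after their values were seen. Of the 72 receptor genes, all were found by gene ID in the RefSeq table of GRCm38.p6, and 60 had a promoter window there. Sequence shared between genes was counted as 50-base words over GENCODE M21 transcripts. Summaries and plots were made in Python 3.11.15 (numpy 2.4.6, pandas 2.3.3; plots, matplotlib 3.10.9). Alternatives were a pseudocount of 0.1, no filter, a minimum of 5 FPKM, median-of-ratios scaling, quantile normalization, no variance trend, the replicate number as a block, an added limit on fold change, and each library left out.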

Additional observations from a re-analysis of the deposited data

How the results depend on the processing

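The counts of differentially expressed receptors changed with the filter, with an added limit on fold change and with single libraries. With no filter, 10 receptors were called (5 higher and 5 lower) and 25 pathway genes, against 18 (8 and 10) and 38, and the median log2 fold change of the receptors was -0.0159 over all 72. That setting tested 19030 genes and called 1762 of them against 3269. With a minimum of 5 FPKM, 14 receptors were called, 4 higher and 10 lower. That minimum left 8784 genes tested in all, of which 2868 were called. Of the 8 that rose before, only Fcgr1 and Cd300a reached this minimum, and both kept the call. Clec4n, not called with the minimum of 1 FPKM, was called higher there, and it was not the only receptor gained. Clec1a, lower before, did not reach this minimum, although 10 were again called lower. With an absolute log2 fold change of at least 1 as well, 2 receptors were called, 2 higher and 0 lower, and 3 pathway genes. Quantile normalization gave a median of -0.0229. Leaving out 1 library at a time, the receptors called ranged from 9 to 17, those higher from 5 to 10, those lower from 4 to 8, the pathway genes called from 16 to 32 and the median from -0.109 to -0.0272, and the calls among all genes ranged from 787 without Ctrl replicate 1 to 2340 without cKO replicate 2. Ctrl replicate 1 and Ctrl replicate 2 were the libraries whose absence lowered the count of receptors by over 1.5 times, to 9 and 10. The lone library of the group was then assumed to vary as the other group did. Of 434 values of 41 single genes under the alternatives other than the limit on fold change, 376 kept direction and side of the threshold, 43 lost the call, 3 gained it and 12 changed sign, and 8 of the 18 receptors called kept the call in each of these in which they were tested.

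The genes that changed sign had passed no test. The log2 fold change of Clec7a was 0.00135 with median-of-ratios scaling, 0.0226 with quantile normalization and -0.144 to 0.118 with 1 library left out. That of Nlrp1a was 0.0478 with quantile normalization and -0.104 to 0.0693 with 1 library left out, and that of Tlr8 was 0.00942 and -0.142 to 0.00649. With 1 library left out, Clec12a ranged from -0.0582 to 0.0627 and Clec14a from -0.177 to 0.00612. The cause of these changes was not tested. Scaling moved the median of all genes by less than 0.1.

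In the labels same-numbered libraries share only a number, and whether they share a litter or a batch is not stated. Their deviations from the group means correlated at 0.015 over 12658 genes, which cannot settle this. With the replicate number as a block, 22 receptors (10 higher and 12 lower) and 42 pathway genes were called. Calls over all 12658 genes were 3383 with the block and 3269 without it.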

Other observations

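The receptor genes that lie together on a chromosome did not all move in the same direction. Between its Fcgr neighbors on chromosome 1, both of which fell, Fcgr4 rose. On chromosome 11 the tested Cd300 genes between 114889152 (Cd300a) and 115135372 (Cd300lf) had positive log2 fold changes of 0.23 to 0.91, of which 3 passed the test, and Cd300lg, which fell, lies apart at 102041511 to 102055617. In the Clec4 cluster of chromosome 6 the log2 fold changes were -0.06 for Clec4a1, 0.05 for Clec4a3, -0.21 for Clec4b1, -0.07 for Clec4a2, 0.44 for Clec4n and 2.07 for Clec4d in the order of the chromosome, and of these only Clec4d passed the test.

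Over the promoter windows of the tested receptor genes, 55.6% held a purine box where 28.3% of the windows of all genes did, and 11.1% held an ISRE-type match where 3.44% did. For GAS the shares were 8.89% and 8.30%, and for AP-1 11.1% and 7.81%. Windows of 1 gene can overlap, and these shares were not tested.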
